A study of Mus musculus with 12 samples.

Results

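Long intergenic noncoding RNA (lincRNA) genes were taken from the GENCODE M21 basic annotation of the mouse mm10 genome, chromosomes 1 to 19 and X, and a gene was kept when its 5′ end lay more than 5 kb from every protein-coding transcript start. The promoter was the stretch 1 kb either side of any transcript start of the gene, and a promoter was counted as marked when a deposited peak overlapped it by 1 bp or more. Of 53843 annotated genes, 5305 were lincRNA genes and 4672 of these met the distance rule. The remaining 633 lincRNA genes within 5 kb of a coding start and the 21755 protein-coding genes served for comparison. The rule used position and gene type and no measured value.

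The data came from CUT&RUN, in which an antibody tethers a nuclease to chromatin and the cut fragments are sequenced, in C2C12, a mouse myoblast cell line that differentiates and fuses in low-serum medium. The labels carried no further genotype or treatment, and all cells were the same line. Differentiation was in DMEM with 2% horse serum. There were 4 states: cells harvested at day 0, cells at day 1, and at day 5 the fused myotubes and the mononucleated reserve cells, which were parted by mild trypsin treatment. Each state had 1 MBD2, 1 H3K4me3 and 1 IgG library, and the IgG libraries were not analysed here. With 1 library per antibody and state, no comparison between states could be tested, and the exact Clopper-Pearson 95% intervals given with shares cover counting error over genes only.

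LincRNAs are transcribed by RNA polymerase II, are spliced and polyadenylated in many cases, and are as a class lower and more cell-type-restricted in expression than messenger RNAs. H3K4me3 marks nucleosomes at active or poised starts of both kinds of gene and is densest over CpG-rich promoters. MBD2 is a methyl-CpG binding subunit of the NuRD nucleosome remodelling and deacetylase complex. In muscle, lincRNAs are known as hosts of the muscle microRNAs (miRNAs) and as regulators of myoblast differentiation.

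The H3K4me3 lists for days 0 and 1, myotubes and reserve cells numbered 19206, 17653, 26024 and 15910 peaks on the chromosomes used, and those of MBD2 numbered 14941, 452, 287 and 111 over the same states. The myotube H3K4me3 list was the longest and its peaks were the weakest, with a median fold enrichment of 9.55 against medians of 29.1, 38.6 and 39.9 in the day 0, day 1 and reserve cell lists. Read depth was not known from the files. Of 8 muscle marker promoters fixed for a check of the cells (Myod1, Myf5, Des, Myog, Myh3, Ckm, Acta1 and Mymk), the counts with H3K4me3 were 3, 8, 8 and 7 over those states. Of 8 markers of other cell types, 1, 2, 2 and 1 were marked in the same order. The 2 satellite or reserve cell markers, Pax7 and Cd34, gave counts of 2, 2, 1 and 2. Pax7 was marked in every library, with a fold of 41.1 in myotubes, and Cd34 was unmarked in myotubes.

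The promoter sequences of 4 lincRNA genes that the myotube results turn on are given first: the 3 with the highest fold among promoters that gained H3K4me3 in myotubes, and Gm28653, which is Lincmd1 (linc-MD1) in RefSeq, a muscle host of 2 miRNAs. Each runs 5′ to 3′ on the gene's own strand over 300 bp, 250 bp upstream of the 5′ end onward, from the GRCm38.p6 (mm10) genome. B230312C02Rik lies at chr2:180385836-180386135 on the minus strand, 1700123J17Rik at chr7:126248189-126248488 on the minus strand, 5430431A17Rik at chr7:44473288-44473587 on the plus strand and Gm28653 at chr1:20669632-20669931 on the plus strand. Capitals mark CANNTG, the E-box letters that MyoD-family factors can bind.
B230312C02Rik: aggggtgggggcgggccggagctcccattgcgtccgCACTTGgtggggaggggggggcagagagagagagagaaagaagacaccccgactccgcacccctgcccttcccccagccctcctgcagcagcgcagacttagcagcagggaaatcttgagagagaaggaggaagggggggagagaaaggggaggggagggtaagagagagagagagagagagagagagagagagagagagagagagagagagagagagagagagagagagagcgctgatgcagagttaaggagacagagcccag
1700123J17Rik: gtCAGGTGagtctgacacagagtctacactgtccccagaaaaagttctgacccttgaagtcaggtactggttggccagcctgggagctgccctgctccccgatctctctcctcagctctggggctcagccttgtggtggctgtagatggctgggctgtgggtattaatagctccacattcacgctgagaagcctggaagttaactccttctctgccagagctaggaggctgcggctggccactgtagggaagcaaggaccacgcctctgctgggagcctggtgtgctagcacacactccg
5430431A17Rik: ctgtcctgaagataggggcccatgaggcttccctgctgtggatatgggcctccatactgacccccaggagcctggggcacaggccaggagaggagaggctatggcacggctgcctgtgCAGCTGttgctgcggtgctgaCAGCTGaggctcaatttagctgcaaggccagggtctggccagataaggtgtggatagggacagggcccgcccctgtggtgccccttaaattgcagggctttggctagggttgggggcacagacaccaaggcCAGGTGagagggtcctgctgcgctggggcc
Gm28653: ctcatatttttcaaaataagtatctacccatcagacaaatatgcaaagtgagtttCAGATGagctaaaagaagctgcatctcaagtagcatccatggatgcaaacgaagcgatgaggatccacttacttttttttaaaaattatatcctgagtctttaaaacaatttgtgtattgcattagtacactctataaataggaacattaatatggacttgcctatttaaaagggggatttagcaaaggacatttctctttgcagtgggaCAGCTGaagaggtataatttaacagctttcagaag
The letters CANNTG occurred 1, 1, 3 and 2 times in these windows in the order shown, and the match describes letters, not bound sites. The CAGCTG form stood in 5430431A17Rik and Gm28653.

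Several marked lincRNA genes are miRNA hosts. Selected mature products (RefSeq, GRCm38.p6) of hosts described below are shown with their seed, bases 2 to 8, in capitals. Those of Gm28653 (miR-206 and miR-133b, both muscle miRNAs), AL805899.1 (miR-31) and Mir155hg have different seeds. Those shown for Mir17hg, which are not all its products, fall into pairs with a shared seed.
mmu-miR-206-3p: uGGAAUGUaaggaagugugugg
mmu-miR-133b-3p: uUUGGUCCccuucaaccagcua
mmu-miR-31-5p: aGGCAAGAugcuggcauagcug
mmu-miR-155-5p: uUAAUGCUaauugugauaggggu
mmu-miR-17-5p: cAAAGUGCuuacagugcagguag
mmu-miR-20a-5p: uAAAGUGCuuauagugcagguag
mmu-miR-19a-3p: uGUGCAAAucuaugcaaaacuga
mmu-miR-19b-3p: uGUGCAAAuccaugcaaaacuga
The seed of miR-17-5p was that of miR-20a-5p, and the seed of miR-19a-3p was that of miR-19b-3p.

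To show what the strongest day 0 MBD2 peaks at lincRNA promoters sat on, 150 bp centred on the peak summit is given for 4 of them, on the plus strand, with CG in capitals. The first pair are the 2 strongest at promoters that also carried H3K4me3 and the last pair are the 2 strongest at promoters with no H3K4me3 in any library. They lie at chr16:42875458-42875607 (4932412D23Rik), chr1:72244448-72244597 (D230017M19Rik, at a start downstream of its 5′ end), chr8:34523989-34524138 (Gm33968) and chr8:85132536-85132685 (Gm42031), all mm10.
4932412D23Rik: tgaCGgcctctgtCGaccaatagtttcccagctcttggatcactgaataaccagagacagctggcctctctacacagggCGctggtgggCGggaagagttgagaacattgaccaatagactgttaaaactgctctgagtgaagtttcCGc
D230017M19Rik: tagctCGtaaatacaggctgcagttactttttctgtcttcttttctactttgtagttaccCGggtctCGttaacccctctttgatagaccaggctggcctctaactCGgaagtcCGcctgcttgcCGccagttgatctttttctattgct
Gm33968: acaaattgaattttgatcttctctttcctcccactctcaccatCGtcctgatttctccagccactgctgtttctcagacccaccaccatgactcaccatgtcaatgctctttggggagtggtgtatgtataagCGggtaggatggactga
Gm42031: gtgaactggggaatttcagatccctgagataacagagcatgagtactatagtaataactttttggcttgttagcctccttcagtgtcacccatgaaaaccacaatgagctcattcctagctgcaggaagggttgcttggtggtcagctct
The first pair held 5 and 6 CG dinucleotides and the last pair held 2 and 0, although the promoter of Gm42031 had an island-like stretch as defined below and a CpG ratio of 0.525 over 1 kb either side of its 5′ end.

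H3K4me3 was found at few lincRNA promoters, and the share was highest in myotubes. It lay at 343 of 4672 promoters at day 0 (7.34%, interval 6.61 to 8.13), at 312 at day 1 (6.68%, 5.98 to 7.43), at 419 in myotubes (8.97%, 8.16 to 9.82) and at 263 in reserve cells (5.63%, 4.99 to 6.33). Over all genes the shares were 29.4%, 29%, 30.1% and 28%. Fewer cells carrying the mark and less of it per cell cannot be told apart in such lists. The shares of lincRNA promoters thus lay far under those of protein-coding promoters, which were 57.0%, 56.7%, 57.8% and 55.3%, and under those of lincRNA genes within 5 kb of a coding start, which were 52.1%, 51.5%, 53.6% and 50.2%. When each H3K4me3 list was cut to its 15910 strongest peaks, the counts were 304, 284, 288 and 263, and the myotube count no longer stood above that at day 0.

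**Figure D1:**
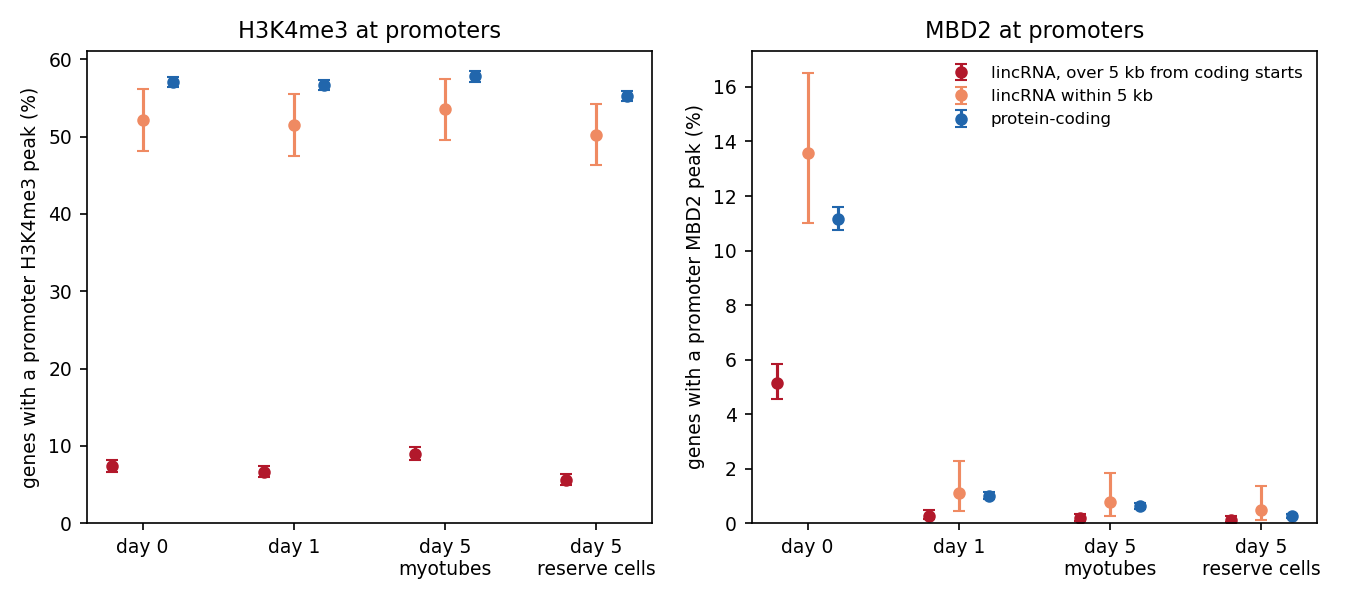
Share of genes with a promoter peak (%) of H3K4me3 (left) and MBD2 (right) in the 4 states, 1 library each, for lincRNA genes over 5 kb from coding starts, lincRNA genes within 5 kb, and protein-coding genes. Bars are exact 95% intervals for counting error; H3K4me3 lay at 5.63% to 8.97% of the distant lincRNA promoters in every state, and MBD2 was at 5.16% of them at day 0 and at 0.278%, 0.171% and 0.107% in the later states.

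Distance from coding genes went with the mark. At day 0, 46 of 275 promoters 5 to 10 kb from the nearest coding start were marked (16.7%), against 155 of 1475 at 10 to 50 kb (10.5%), 113 of 1774 at 50 to 200 kb (6.37%) and 29 of 1148 beyond 200 kb (2.53%). The order was the same in the other 3 H3K4me3 libraries. Just inside the 5 kb limit, at 5 to 6 kb, 13 of 59 promoters were marked at day 0, and just outside it, at 4 to 5 kb, 9 of 64. The peaks were nearly all separate from coding promoters: only 7, 6, 3 and 2 marked lincRNA promoters in the 4 states shared every peak with a coding promoter. The 5 kb rule itself makes sharing rare, since in most cases only a wide peak can reach both promoter windows.

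Coverage by H3K4me3 peaks was centred just downstream of the 5′ end. At 200 bp downstream it reached 6.29% of the genes in myotubes and 5.52%, 5.09% and 4.20% in day 0, day 1 and reserve cells. MBD2 coverage at day 0 was 1.80% at the 5′ end.

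**Figure D2:**
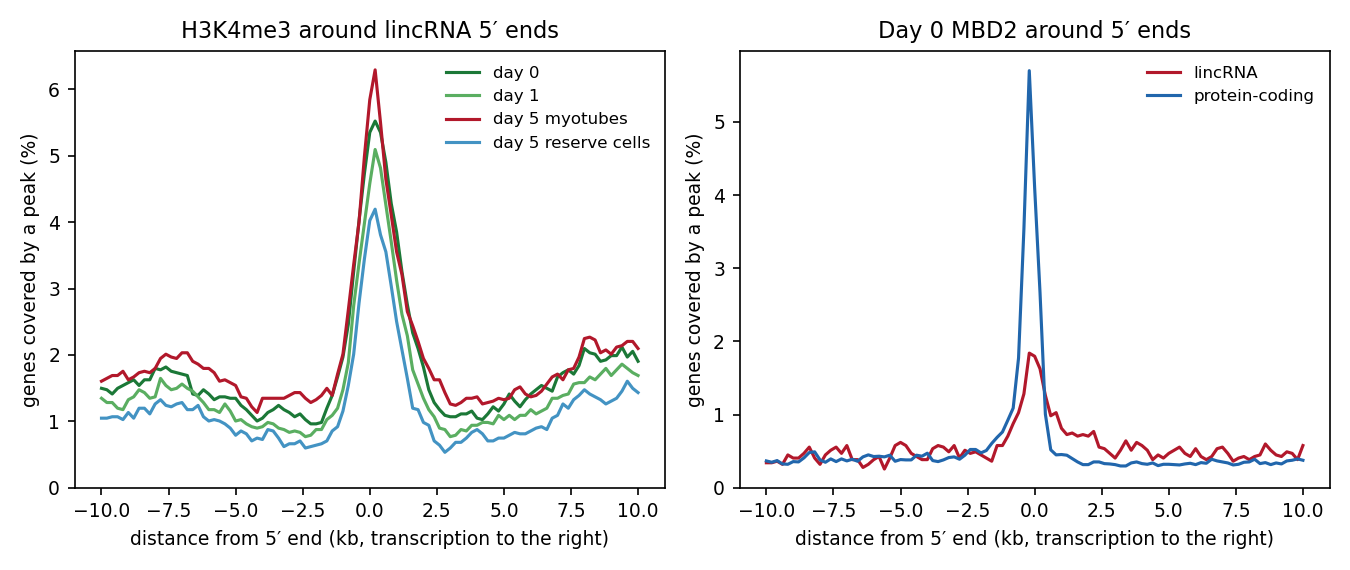
Share of genes (%) whose sequence at a given distance from the annotated 5′ end (kb, transcription to the right) was covered by a peak, for H3K4me3 at lincRNA genes in 4 states (left) and for day 0 MBD2 at lincRNA and protein-coding genes (right). The H3K4me3 curves are highest just downstream of the 5′ end, at 6.29% in myotubes, and the lincRNA MBD2 curve is lower than the coding curve at the 5′ end.

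The marked lincRNA promoters fell into a constant set and a variable set. Over the 4 libraries 485 promoters were marked at least once, 230 of them (47.4%) in all 4, whereas 90.4% of the 12996 protein-coding promoters marked at least once were marked in all 4. Another 115 were marked in myotubes alone (2.46% of lincRNA genes, all genes 1.51%) and 24 at day 0 alone (0.514%, all genes 0.472%). Day 1 alone had 4 (0.0856%, all genes 0.134%) and reserve cells alone had 1 (0.0214%, all genes 0.0947%). The other 4187 were never marked (89.6%, all genes 68.4%). The 115 came from the longest list, that with the weakest peaks, and had a median fold of 5.23. The 230 constant promoters had strong and wide peaks, with median folds of 32.6, 33.7, 22.8 and 25.5 and median widths of 2151, 1878, 1901 and 1551 bp at days 0 and 1, in myotubes and reserve cells. The 255 promoters marked in 1 to 3 libraries had median folds of 6.88, 5.83, 5.40 and 5.59 where marked. Coding promoters marked in all 4 libraries had higher median folds than the constant lincRNA promoters in every state: 48.3, 58.1, 36.6 and 53.8. Fold enrichment is the authors' own value for each peak. It places a peak within its own list, and folds of different lists are set side by side without a claim of change, since the depth and background of each library are not known.

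The constant set held many of the known lincRNAs on the lists. Over all lincRNA genes 4.92% were marked in all 4 libraries, and over all genes 27.2%. Genes with other than a Gm, Rik or clone-type symbol were marked more often in general. At day 0 the counts were 32 of 143 such lincRNA genes (22.4%) and 311 of 4529 of the rest (6.87%). Malat1, an abundant nuclear RNA of splicing speckles, had folds of 51.6, 67.0, 39.5 and 56.7 at days 0 and 1, in myotubes and reserve cells. Neat1, the scaffold of paraspeckles, had folds of 71.2, 53.3, 44.4 and 63.4 under peaks 17838, 15499, 28634 and 12990 bp wide, the widest being in myotubes. Both nuclear RNAs were thus marked in every library, as was 2900097C17Rik, the third gene of the abundant nuclear list that met the rule. The 3 X inactivation genes that met the rule, Xist, which coats the inactive X, and its neighbours Jpx and Ftx, were marked in all 4 libraries, with folds at Xist of 29.2, 29.9, 34.2 and 47.1. Of the 4 stress and growth genes that met the rule all were marked throughout: Pvt1, the neighbour of Myc, Trp53cor1 (lincRNA-p21), a p53 target beside Cdkn1a, and the small nucleolar RNA hosts Snhg12 and Epb41l4aos.

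Pvt1 had the highest day 0 fold of any lincRNA promoter, with folds of 145, 110, 43.9 and 47.0. Gm40841 and Gm38399 were also among the highest, Gm40841 with 96.4, 152, 77.7 and 101 and Gm38399 with 126, 121, 55.3 and 116. No function is given here for these 2 predicted genes. Lncpint, a p53-induced RNA, had highest folds of 58.8, 66.8, 63.0 and 75.9, at a start far inside the gene at day 0 and day 1 and at the 5′ end in myotubes and reserve cells, so these folds are not of 1 site. At the 5′ end the H3K4me3 peak was 5463, 5710, 5406 and 5200 bp wide in the 4 states.

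Some constant promoters lay in domains that they shared with coding genes, and the extent of the single peak differed between states. Hotair, an antisense RNA of the HoxC cluster, lay in 1 peak of 42837 bp at day 0 and 1 of 42577 bp at day 1, which also covered the starts of Hoxc9, Hoxc10 and Hoxc11. In myotubes and in reserve cells the peak at Hotair was 7505 and 7196 bp wide and reached no coding start. Lockd, a lincRNA downstream of the cell-cycle inhibitor gene Cdkn1b, and its neighbour Gm44238 shared 1 peak of 14502 bp with Cdkn1b at day 0 and 1 of 14593 bp at day 1. The peak at Lockd was 2949 bp wide in myotubes and 5379 bp wide in reserve cells, again without the coding start. Separate day 5 peaks overlapped the rest of the day 0 Hotair domain, the strongest with folds of 80.1 in myotubes and 115 in reserve cells, and a separate reserve cell peak of fold 69.0 overlapped the day 0 domain at Lockd. AL805899.1, the host of miR-31, had peaks 14637, 11744, 7063 and 10772 bp wide, all its own, with folds of 47.6, 78.3, 40.7 and 67.2.

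Of 15 symbols on the muscle list, 8 were in the annotation and 3 met the rule, and all 3 were marked in every library. The list was matched by symbol, so muscle lincRNAs annotated under another symbol were not counted. 2310065F04Rik (linc-Myh), described below and not on the list, was marked in myotubes alone. Gm28653 (Lincmd1), whose RNA is known to act as a decoy for muscle miRNAs and which hosts miR-206 and miR-133b, had folds of 22.3, 62.0, 51.3 and 24.97. Its peak was 5322, 6766, 10407 and 5027 bp wide in the 4 states, and the myotube peak ran over chr1:20667951-20678357, the 5′ end lying at position 20669882. Each fold lay above the median of marked lincRNA promoters in its own list, which was 18.6, 21.2, 10.6 and 21.6, and the widest peak was that of myotubes. Dubr, a lincRNA reported to promote myoblast differentiation, had folds of 45.2, 67.9, 26.1 and 60.5, and its peak was 1920 bp wide in myotubes, against 2684 bp at day 0. The third, 1700020I14Rik, had folds of 65.1, 59.1, 32.5 and 68.8. H19, an imprinted RNA that hosts miR-675 and is abundant in muscle, had folds of 17.6, 33.7, 25.2 and 16.5. Meg3 and Mirg, the other imprinted genes that met the rule, carried no peak of either antibody in any library.

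Hosts of miRNAs were marked more often than other lincRNA genes: 18 of 58 at day 0 (31.0%, interval 19.5 to 44.5), and 16, 16 and 13 in the later states, against 320 of 4583 lincRNA genes with no small RNA at day 0 (6.98%, 6.26 to 7.76). Mir17hg, the host of the growth-promoting miR-17 to miR-92 cluster, had folds of 44.8, 51.9, 38.2 and 44.7, and Mir155hg had 69.2, 54.5, 31.2 and 37.7. C130071C03Rik, which hosts Mir9-2 and whose nearest coding gene was Mef2c, was marked at days 0 and 1 and in myotubes and not in reserve cells. At its 5′ end the folds were 14.6, 16.0 and 5.85 under peaks 2388, 1324 and 704 bp wide. Its strongest day 0 peak, of fold 21.5, lay at another start, and reserve cells had a peak of fold 18.7 that overlapped the same stretch without reaching the promoter window. Mir670hg was marked at day 0 and day 1 only, with folds of 5.66 and 4.46. Small RNA hosts by symbol (9 members) were marked in 6, 6, 5 and 5 cases.

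Lists of other tissues were then read, beside the 4187 of 4672 lincRNA promoters that were never marked (89.6%). None of 18 Platr genes, named for pluripotency-associated transcripts, and not Lncenc1, another embryonic stem cell RNA, carried a peak in any library. Of 3 neuronal genes, Miat and Meg3 were unmarked and Rmst had 1 peak of fold 4.45 at day 0 alone. Both genes of the heart and mesoderm list were marked: Carmn, the host region of miR-143 and miR-145 in smooth muscle, with folds of 59.1, 64.3, 24.4 and 59.7, and Bvht (Braveheart), a cardiac lineage RNA of the mouse, with 5.56, 5.57 and 7.52 and no peak in reserve cells.

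Day 1 cells differed from day 0 by few gains. Of 4329 lincRNA promoters unmarked at day 0, 22 were marked at day 1 (0.508%), where the share over all genes was 0.718%. Without a chromosome 17 locus described below, whose genes share peaks, the 22 became 19. Of 343 marked at day 0, 53 had no peak at day 1 (15.5%), where the share over all genes was 3.13% and over protein-coding genes 1.86%. The gained peaks were weak, with a median fold of 5.00, and the strongest was that of 5430431A17Rik, at 12.4. Gm49427, whose nearest coding gene was the muscle actin-binding gene Xirp1, had a fold of 11.53 at day 1 under a peak at the edge of the promoter window. Peaks of fold 9.60, 3.14 and 4.32 at day 0, in myotubes and reserve cells overlapped that peak and fell just outside the window.

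Myotubes had the largest number of gains. Of the 4329 promoters unmarked at day 0, 133 were marked in myotubes (3.07%, interval 2.58 to 3.63), where the share over all genes was 2.66% and over protein-coding genes 5.43%. Of the 343 marked at day 0, 57 had no peak in myotubes (16.6%, 12.8 to 20.99), where the share over all genes was 4.11%. With equal numbers of H3K4me3 peaks per list the gains were 53 and the losses 69. Most gains were low: their median fold was 5.40 and their median width 621 bp. The nearest coding gene gained the mark in 2 of 133 cases (1.504%), where over all lincRNA promoters it did so in 80 of 4672 (1.71%). At 130 of the 133 no day 0 peak overlapped the myotube peak itself.

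The strongest gains in myotubes stood well apart from that median. B230312C02Rik had no peak at day 0, folds of 5.17, 58.1 and 4.01 in day 1 cells, myotubes and reserve cells, and a myotube peak of 10051 bp at chr2:180384595-180394645 that also covered the start of Mir1a-1, a muscle miRNA gene. The promoter peaks at day 1 and in reserve cells were 2431 and 549 bp wide and did not reach that start, which a separate reserve cell peak of 1968 bp and fold 7.54 covered. A separate day 1 peak of fold 6.62, outside the promoter window, also overlapped the B230312C02Rik myotube peak. 1700123J17Rik had promoter folds of 7.54, 50.1 and 4.10 in day 1 cells, myotubes and reserve cells. Outside its window, peaks of fold 10.1 at day 1 and 6.34 in reserve cells overlapped its myotube peak. 5430431A17Rik had folds of 12.4, 45.0 and 11.0 in day 1 cells, myotubes and reserve cells. Its myotube peak, at chr7:44471146-44484716, was 13571 bp wide, against 3104 bp on day 1 and 1509 bp for reserve cells. The promoter folds of all 3 genes thus lay far above the median of marked lincRNA promoters in the myotube list, which was 10.6. They lay below those of the day 1 and reserve cell lists, which were 21.2 and 21.6.

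Gm5532, Gm32914 and Gm37565 were marked in myotubes alone, with folds of 34.6, 33.4 and 33.3 and widths of 1893, 3825 and 4028 bp. At Gm32914 the other libraries had peaks outside the promoter window that overlapped the myotube peak, with highest folds of 3.93, 7.99 and 6.72 at days 0 and 1 and in reserve cells. The nearest coding gene of Gm32914 was Sspn, which encodes sarcospan of the dystrophin complex. 2310065F04Rik, which RefSeq also names linc-Myh and which lies beside the fast myosin heavy chain genes, was marked in myotubes alone with a fold of 10.8 and a width of 1090 bp, and its nearest coding start, 41780 bp away, was that of Myh3, the embryonic heavy chain. It was chosen after its values were seen. Some named promoters were marked already at day 0: Gm49293 had folds of 6.47, 6.63 and 41.8 at days 0 and 1 and in myotubes and no peak in reserve cells, A930003A15Rik had 7.69, 16.7 and 28.7 and none in reserve cells, and AC167363.1 had 5.77, 7.90, 26.5 and 6.24 in the 4 states.

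**Figure D3:**
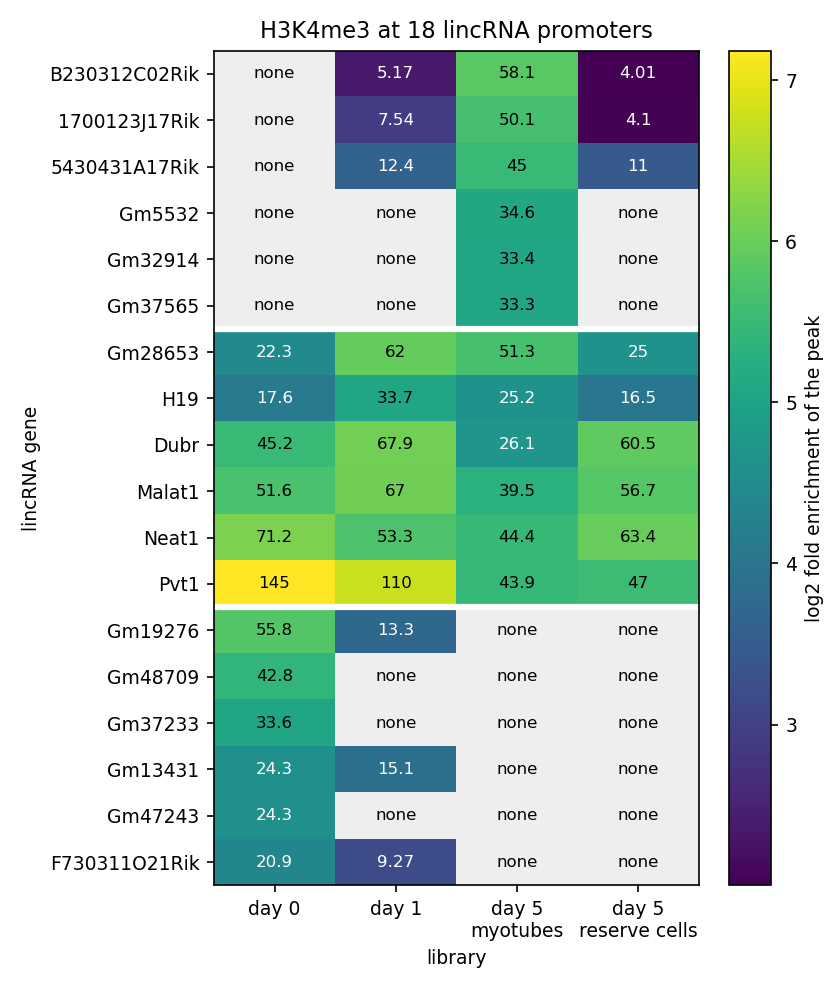
Fold enrichment of the H3K4me3 peak at 18 lincRNA promoters (rows) in the 4 libraries (columns); colour is log2 fold, the printed value is the fold, and grey cells had no peak. The top 6 rows are the strongest gains in myotubes, the middle 6 are constant promoters, and the bottom 6, picked as strong day 0 promoters with no peak in myotubes or reserve cells, include Gm37233, Gm47243 and Gm48709, whose day 0 peaks were overlapped by later peaks outside the promoter window. In the top rows, B230312C02Rik, 1700123J17Rik and Gm32914 also had peaks outside their windows in other libraries.

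In the full lists reserve cells had fewer gains and more losses. Of the 4329 promoters unmarked at day 0, 14 were marked in reserve cells (0.323%), where the share over all genes was 0.542%. Without the chromosome 17 locus the 14 became 11. Of 343 marked at day 0, 94 had no peak in reserve cells (27.4%, interval 22.8 to 32.5), where the share over all genes was 6.15% and over protein-coding genes 4.12%. With equal numbers of peaks the losses were 59, against 69 in myotubes, so reserve cells no longer had the more losses of these states. At 86 of the 94 no reserve cell peak overlapped the day 0 peak itself, and at the other 8 one did. Gm19276 had folds of 55.8 at day 0 and 13.3 at day 1, Gm13431 24.3 and 15.1, and F730311O21Rik 20.9 and 9.27, and none of the 3 had a peak in myotubes or reserve cells. Other named losses were changes in where a peak ended. Gm37233, the host of Mir5103, had a fold of 33.6 at day 0 and peaks of fold 32.5, 29.7 and 26.4 at day 1, in myotubes and reserve cells that overlapped the day 0 peak but stopped short of the promoter window. Gm47243 had a fold of 24.3 at day 0 and, likewise, peaks of fold 23.9, 7.71 and 18.7 just outside the window. The day 0 peak at Gm48709, of 10459 bp and fold 42.8, also covered the start of Ltbp2, a coding gene of the extracellular matrix, and peaks of fold 20.5, 24.5 and 77.8 overlapped that peak in the later libraries without reaching Gm48709.

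Promoters with weak day 0 peaks lacked a later peak more often than those with strong ones, at lincRNA and coding genes alike. At promoters with a day 0 fold of 20 or more, reserve cells lacked a peak at 7 of 164 lincRNA promoters (4.27%, interval 1.73 to 8.60) and at 42 of 10896 protein-coding promoters (0.385%, 0.278 to 0.521). At 4 of those 7 lincRNA promoters and 30 of those 42 coding ones a reserve cell peak still overlapped the day 0 peak, outside the promoter window. The promoters with no overlapping peak were thus 3 of 164 (1.83%, 0.379 to 5.25), namely Gm19276, Gm13431 and F730311O21Rik, and 12 of 10896 (0.110%, 0.0569 to 0.192). At folds of 10 to 20 the losses were 11 of 66 lincRNA promoters (16.7%) and 82 of 745 coding ones (11.0%), and those intervals, 8.62 to 27.9 and 8.85 to 13.5, overlapped. At folds of 5 to 10 they were 49 of 83 (59.0%) and 221 of 517 (42.7%). In myotubes the strongest class lost 6 of 164 lincRNA promoters (3.66%) and 43 of 10896 coding ones (0.395%), of which 3 and 19 had no overlapping myotube peak, and at folds of 5 to 10 the shares were 25.3% of lincRNA and 26.7% of coding promoters.

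Between the day 5 fractions, the full lists held more promoters marked only in myotubes than only in reserve cells. Of 4409 lincRNA promoters unmarked in reserve cells, 174 were marked in myotubes (3.95%, interval 3.39 to 4.56). That share was close to the 3.62% over all genes. Of 263 marked in reserve cells, 18 had no peak in myotubes (6.84%, 4.11 to 10.6), where the share over all genes was 1.83%. With equal numbers of peaks these counts were 62 and 37. Without the chromosome 17 locus the 18 became 15. Among those marked in reserve cells and not in myotubes, the highest reserve cell folds were those of Gm48619 at 13.0, Gm43464 at 10.3 and Gm48857 at 9.69, and all 3 were also marked at day 0 and day 1.

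The sequence of the constant promoters differed from that of the rest. In the 1 kb either side of the 5′ end, the median ratio of observed to expected CpG was 0.444 at promoters marked in all 4 libraries, 0.246 at those marked in 1 to 3 and 0.199 at those never marked, and it was 0.636 at coding promoters marked in all 4. A CpG island-like stretch, taken as 200 bp with at least 50% GC and a CpG ratio of at least 0.6, was present at 75.7%, 29.4% and 17.7% of the 3 lincRNA classes and at 94.6% of those coding promoters. Even with such a stretch, lincRNA promoters were seldom marked: 210 of 990 at day 0 (21.2%, interval 18.7 to 23.9), against 11602 of 14462 coding promoters with one (80.2%, 79.6 to 80.9). Malat1 had a CpG ratio of 0.731, whereas the muscle gene Gm28653 had 0.162 and 5430431A17Rik 0.122, both with no island-like stretch. The 133 promoters that gained H3K4me3 in myotubes had a median of 0.223.

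Motifs were searched on both strands in the 300 bp from 250 bp upstream of the 5′ end. CAGCTG, which is one form of CANNTG, occurred at 40 of the 133 promoters that gained H3K4me3 in myotubes (30.1%), at 29.4% of those marked in 1 to 3 libraries, at 14.3% of those marked in all 4, at 18.5% of all lincRNA promoters and at 15.2% of all gene promoters. CANNTG occurred at 82.7% of the gained promoters, 81.7% of all lincRNA promoters and 75.2% of all gene promoters. The Mef2-type letters CTAAAAATA occurred at 2 of the 133 (1.504%), and at 0.449% of all lincRNA and 0.570% of all gene promoters. TATAAA occurred at 13.5% of the 133, 17.3% of all lincRNA promoters and 17.4% of all gene promoters. The share with CAGCTG was also 30.9% at the 94 promoters without a peak in reserve cells that were marked at day 0.

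**Figure D4:**
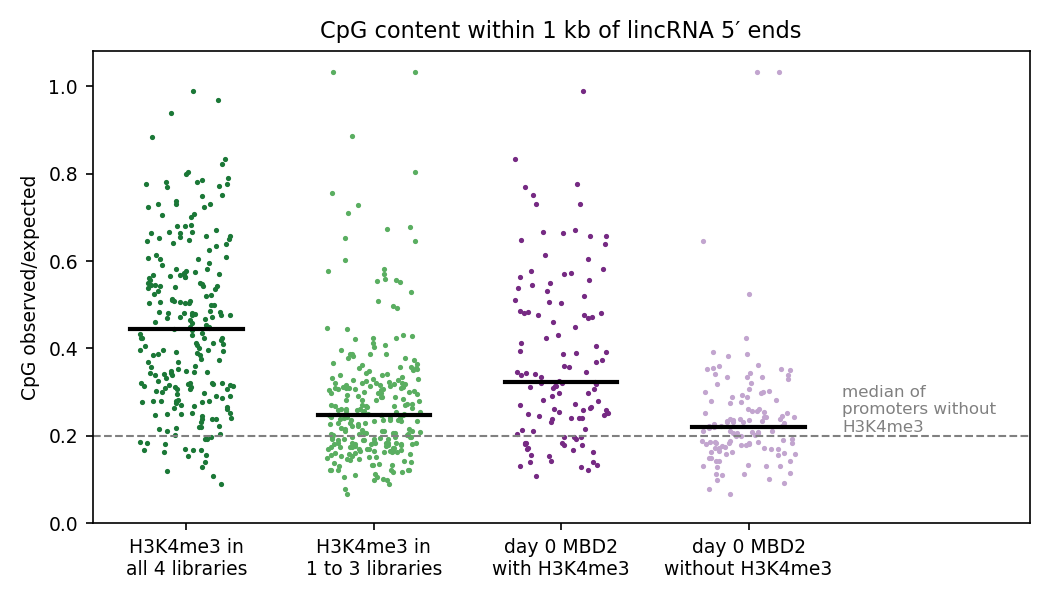
Ratio of observed to expected CpG in the 1 kb either side of the 5′ end for 4 sets of lincRNA promoters; each point is 1 promoter, black bars are medians and the dashed line is the median of the 4187 promoters never marked by H3K4me3 (0.199). The medians are 0.444 and 0.246 for promoters marked in all 4 or in 1 to 3 libraries, and 0.323 and 0.221 for day 0 MBD2 promoters with and without H3K4me3; a promoter can be in more than 1 set.

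MBD2 was found at lincRNA promoters almost only at day 0. It lay at 241 of 4672 promoters at day 0 (5.16%, interval 4.54 to 5.83), at 13 at day 1 (0.278%), at 8 in myotubes (0.171%) and at 5 in reserve cells (0.107%). Over all genes the shares were 6.55%, 0.563%, 0.345% and 0.145%, and over protein-coding genes 11.2%, 1.01%, 0.625% and 0.253%. Of the 241, 228 had no peak at day 1 (94.6%, all genes 91.9%), 234 none in myotubes (97.1%, all genes 96.3%) and 236 none in reserve cells (97.9%, all genes 98.2%), so the loss at lincRNA promoters was close to that over all genes. Gains were rare: 0 of 4431 promoters at day 1 (all genes 0.0358%), 1 in myotubes (all genes 0.107%) and 0 in reserve cells (all genes 0.0258%). The later lists were themselves short, and with 111 peaks from each list the counts were 5, 5, 3 and 5.

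The strongest MBD2 peaks were at 4932412D23Rik, a gene near Zbtb20, with folds of 98.1 at day 0, 21.3 at day 1 and 8.73 in reserve cells, and at D230017M19Rik, near Mreg, with 97.1 at day 0, 13.2 at day 1 and 5.35 in myotubes. H3K4me3 was present at both in all 4 libraries, with folds of 65.1, 51.5, 45.4 and 47.1 at 4932412D23Rik and 33.8, 43.4, 26.1 and 37.5 at D230017M19Rik. At D230017M19Rik these H3K4me3 peaks lay at another start than the listed MBD2 peak, which overlapped weaker H3K4me3 peaks of fold 7.36, 9.46, 6.37 and 11.53. The stronger H3K4me3 peak at day 0 was overlapped by a second MBD2 peak, of fold 54.6. Other strong day 0 peaks lay where no H3K4me3 was called in any library: Gm33968 had a fold of 25.1, Gm42031 21.2, Gm29501 20.1 and 4930538L07Rik 19.9, and none of these had MBD2 later. Gm12415, at 21.3, carried H3K4me3 at day 0 and day 1 only, with folds of 7.28 and 6.73. Among known genes, the day 0 MBD2 fold at Neat1 was 6.62, just above the median of 6.45 for lincRNA promoters with MBD2. It was below that median at Carmn (5.15), Lncpint (5.15), Gm28653 (5.02), Snhg12 (4.41), H19 (3.91) and Malat1 (3.49). Further day 0 MBD2 peaks, of fold 9.56 at Neat1 and 5.07 at Malat1, overlapped the H3K4me3 peak outside the promoter window.

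Of the 19 lincRNA promoters with MBD2 in any later library, 18 also had it at day 0, the exception being 2410080I02Rik, near Klf9, with a fold of 5.35 in myotubes. Gm26863 had MBD2 in 3 libraries, with folds of 8.95, 5.14 and 6.32 at days 0 and 1 and in myotubes, and Gm33570 had 7.35 at day 0 and 6.19 in myotubes with no H3K4me3. Gm26917 was the only one with MBD2 in all 4. Its myotube fold was 1.46, the lowest at any lincRNA promoter in that list. Fragment coverage at its summits was 519, 126, 247 and 188 at days 0 and 1, in myotubes and reserve cells. At 4932412D23Rik, the strongest by fold, it was 136 at day 0. Gm26917 thus had high coverage beside low folds, and the reason was not tested. Gm26917 shares a chromosome 17 locus with Gm42418 and AY036118. There 1 region gave all 3 genes the same day 0 fold of 13.8 and the same reserve cell fold of 4.62, so they are not separate observations. Without that locus the reserve cell count was 2.

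At day 0 a smaller share of MBD2 promoters carried H3K4me3 at lincRNA genes than at coding ones. H3K4me3 was present at 119 of the 241 MBD2 promoters (49.4%, interval 42.9 to 55.9), against 2357 of 2431 protein-coding MBD2 promoters (97.0%, 96.2 to 97.6) and 81 of 86 MBD2 promoters of lincRNA genes near coding starts (94.2%). Among all lincRNA promoters without MBD2 the share with H3K4me3 was 5.06%, and among coding promoters without MBD2 it was 52.0%. Over all genes the shares were 87.9% with MBD2 and 25.3% without. H3K4me3 was thus more frequent with MBD2 in both classes, and the lincRNA shares were lower with and without it. Read the other way, 119 of 343 lincRNA promoters with H3K4me3 had MBD2 (34.7%, 29.7 to 40.0), against 2357 of 12402 coding promoters with H3K4me3, an interval of 18.3 to 19.7%. At 116 of the 119 promoters an MBD2 peak and an H3K4me3 peak overlapped each other. With the stronger 50% of each list the share of MBD2 promoters with H3K4me3 was 18.4%.

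The MBD2 peaks with and without H3K4me3 had close median folds, and their promoters differed in CpG content. Their median fold was 6.44 with H3K4me3 and 6.62 without, and their median width 452 and 480 bp. A CpG island-like stretch was present at 55.5% of MBD2 promoters with H3K4me3 (interval 46.1 to 64.6) and at 19.7% of those without (13.0 to 27.8), the second share being close to the 21.2% of all lincRNA promoters. The median CpG ratio was 0.323 with H3K4me3 and 0.221 without, against 0.207 over all lincRNA promoters.

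Promoters with MBD2 and no H3K4me3 at day 0 were marked in myotubes more often than others. Of 122 such lincRNA promoters, 25 carried H3K4me3 in myotubes (20.5%, interval 13.7 to 28.7), against 108 of 4207 with neither at day 0 (2.57%, 2.11 to 3.09). The protein-coding shares were 18 of 74 (24.3%, 15.1 to 35.7) and 490 of 9279 (5.28%, 4.83 to 5.76). At day 1 the lincRNA shares were 6 of 122 (4.92%) and 16 of 4207 (0.380%), and in reserve cells 3 of 122 (2.46%) and 11 of 4207 (0.261%). The 3 genes of the chromosome 17 locus made up all 3 of the reserve cell cases and 3 of the 6 at day 1. Without them the shares were 3 of 119 (2.52%, 0.523 to 7.19) at day 1, 25 of 119 (21.01%, 14.1 to 29.4) in myotubes and 0 of 119 in reserve cells, an interval of 0 to 3.05%. The myotube difference was also present at promoters with no island-like stretch, 22 of 98 (22.4%) against 78 of 3451 (2.26%). At promoters with such a stretch the shares were 3 of 24 (12.5%, 2.66 to 32.4) and 30 of 756 (3.97%, 2.69 to 5.62), and these intervals overlapped. With equal numbers of H3K4me3 peaks per list the myotube shares were 6.62% with MBD2 and 1.04% without.

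At 20 of the 25 promoters the myotube H3K4me3 peak overlapped the site of the day 0 MBD2 peak. The H3K4me3 folds ran between 2.65 and 29.7, with a median of 5.40. The highest were 29.7 at 5730419F03Rik, near Acsl3, where the day 0 MBD2 fold was 7.17, and 27.4 at 2310020H05Rik, where it was 9.49. Gm3830, whose start lay 6087 bp from that of Cbfb, a partner of the Runx factors, had 13.3 in myotubes under a peak of 5454 bp and 5.15 for MBD2 at day 0. No later library had MBD2 at these 3 promoters.

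**Figure D5:**
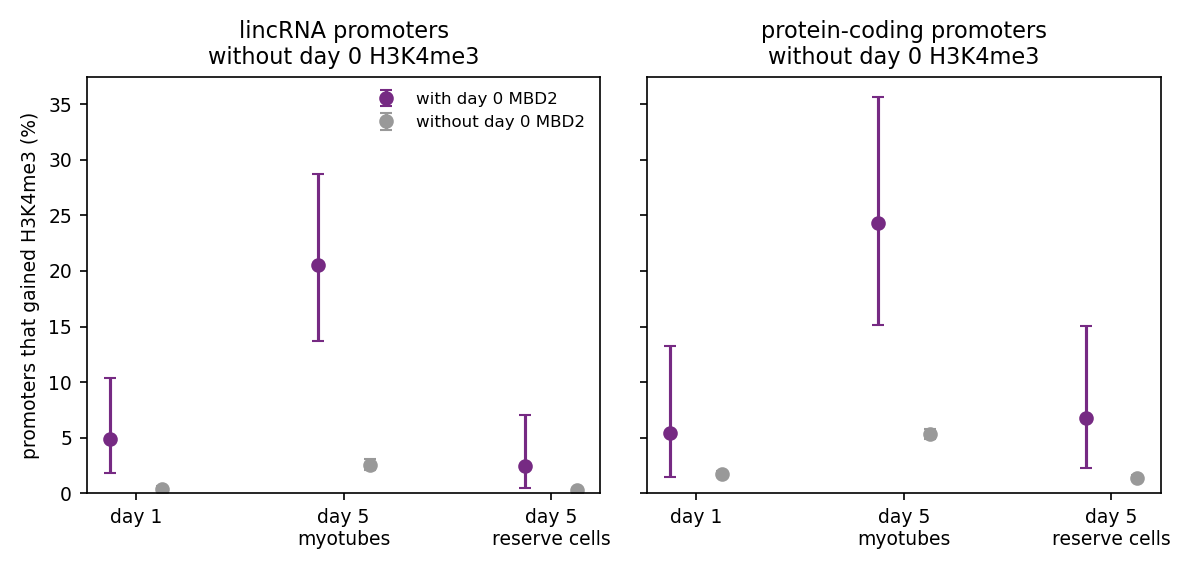
Share of promoters without day 0 H3K4me3 that carried it at day 1, in myotubes or in reserve cells (%), for lincRNA (left) and protein-coding (right) genes with (purple) and without (grey) a day 0 MBD2 peak. Bars are exact 95% intervals for counting error; in myotubes the lincRNA shares are 20.5% of 122 and 2.57% of 4207.

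Losses of H3K4me3 with and without day 0 MBD2 were also compared. Of lincRNA promoters marked at day 0, myotubes lacked the mark at 12 of 119 with MBD2 (10.1%, interval 5.32 to 16.95) and at 45 of 224 without (20.1%, 15.0 to 25.9), and reserve cells at 31 of 119 (26.1%) and 63 of 224 (28.1%). These lincRNA intervals overlapped in both states, which does not show the shares to be alike. At coding promoters, myotubes lacked the mark at 13 of 2357 with MBD2 (0.552%, 0.294 to 0.941). Without MBD2 they lacked it at 330 of 10045 (3.29%, 2.95 to 3.65). In reserve cells the coding shares were 1.23% with MBD2 and 4.80% without.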

How the data were processed

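CUT&RUN libraries of 4 C2C12 states were read from 8 deposited peak lists, 1 per antibody (MBD2, H3K4me3) and state; IgG was not analysed here. The submitters' processing notes name Trim Galore, Bowtie2, SAMtools and MACS2 and the mm10 build, and per the series' design text these trimmed, mapped and filtered the paired fragments and called the peaks. Versions, peak calling settings, any control library and the read depth were not given in the sources used here. Per the file headers, the authors gave each peak a pileup signal (fragment coverage at the summit), a fold enrichment, and the −log10 of its p-value and q-value; the smallest deposited −log10 q-value corresponds to the usual limit of 0.05.

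Peak starts and ends were used as deposited. Peaks were joined to GENCODE M21 transcript starts by an overlap of 1 bp or more, and a promoter took its highest-fold peak. Overlaps were checked on simulated peaks planted at promoters. CpG content and motifs came from the GRCm38.p6 genome, whose chromosome lengths contained every peak. Gained or lost means a peak in only 1 of 2 lists. No test was run because each group had 1 library; shares carry exact 95% intervals. Named genes were the members of known lincRNA lists with a peak, the 6 of highest fold per contrast and direction, the strongest and widest constant promoters, and the 10 strongest MBD2 promoters with those marked later. The members, lists and rules were chosen with earlier results of these data known. Alternatives were equal numbers of peaks, the stronger 50% of peaks, windows of 500 bp and 2 kb, a distance of 10 kb, an overlap of 200 bp, and leaving out peaks at coding promoters. Python 3.11.15, pandas 2.3.3 and SciPy 1.17.1 were used.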

Additional observations from a re-analysis of the deposited data

How the results depend on the processing

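With equal numbers of peaks, day 5 H3K4me3 contrasts moved: 53 gained in myotubes and 59 lost in reserve cells against day 0, and 62 only in myotubes and 37 only in reserve cells between the fractions. The MBD2 counts were 5, 5 and 3 at days 0 and 1 and in myotubes, and 40% of the 5 day 0 MBD2 promoters had H3K4me3. With the stronger 50% of each list, H3K4me3 lay at 122, 102, 223 and 83 promoters at days 0 and 1, in myotubes and reserve cells, and MBD2 at 141, 7 and 4 promoters at days 0 and 1 and in myotubes. In that setting 6 promoters were gained and 26 lost at day 1, 4 lost in myotubes, and 4 gained and 43 lost in reserve cells, all against day 0, with 0 marked in reserve cells and not in myotubes. H3K4me3 stood at 18.4% of its day 0 MBD2 promoters. The share gaining H3K4me3 in myotubes without day 0 MBD2 was 1.94% with the stronger 50%, 2.07% with a window of 500 bp and 3.25% with one of 2 kb. With equal numbers of H3K4me3 peaks and all MBD2 peaks it was 1.04%, and 6.62% with MBD2; these alternatives for that result were chosen after seeing the data. Leaving out the chromosome 17 locus, also chosen after seeing the data, gave 2 MBD2 promoters in reserve cells. Counting a gain or loss only where no peak of the other list overlapped the promoter's own peak, likewise chosen after seeing the data, kept all 8 counts within 1.5 times. The 10 kb distance, the overlap of 200 bp and leaving out peaks at coding promoters kept every count within 1.5 times and every share within its interval. No paired analysis was possible because each group had 1 library and the labels gave no replicate numbers.

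Each state and antibody rests on 1 library, so the spread between cultures is unknown. The lists differ in length, and a missing peak means only that none passed the authors' threshold. Depth is unknown.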
